A study of Mus musculus with 4 samples.

Results

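The haemoglobin messenger RNAs are those of the 4 adult globin genes of the mouse, Hbb-bs and Hbb-bt for the beta chain and Hba-a1 and Hba-a2 for the alpha chain, and these 4 gene IDs were taken by symbol from the 47069 gene IDs in the table of counts. The first of the groups compared was RNA of exosomes, small vesicles that cells release, in 2 libraries. The other was RNA of primary tumour, also in 2 libraries. All libraries came from C57BL/6 mice that carried Lewis lung carcinoma (LLC), an established mouse lung carcinoma cell line, under the skin, and tumours were cut 3 weeks after inoculation. The exosomes came from tumour pieces held for 12 h in RPMI without serum. The medium was cleared by centrifugation and a 0.2 µm filter, and exosomes were then precipitated with ExoQuick-TC without ultracentrifugation. Tumour pieces hold the carcinoma cells together with the blood vessels, blood and immune cells of the host, and the labels do not state that blood was removed. The labels number the replicates without saying that they are separate animals, so the tests see no spread other than that among these libraries, which may be technical.

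Haemoglobin, the oxygen carrier of red blood cells, is built from pairs of alpha and beta chains, each of which holds a haem group. Red cell precursors make very large amounts of globin messenger RNA, and in mammals the young red cell that has lost its nucleus still carries it. The alpha and beta genes lie in separate clusters that also hold embryonic genes, and globin messenger RNA in a solid tissue sample is widely used as a sign of blood. In such bulk samples, fewer cells of a type and less RNA per cell cannot be told apart.

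On the assembly GRCm38, Hbb-bs (ENSMUSG00000052305) lies on chromosome 7 at 103826534 to 103828096 and Hbb-bt (ENSMUSG00000073940) at 103812524 to 103813996, both on the minus strand and 12537 bases apart. Hba-a1 (ENSMUSG00000069919) lies on chromosome 11 at 32283511 to 32284465 and Hba-a2 (ENSMUSG00000069917) at 32296489 to 32297298, both on the plus strand and 12023 bases apart. Each main transcript has 3 exons. The coding sequences are shown because the coding parts of each pair are almost the same. The capital letter marks the only base in which the coding parts of a pair differ, counted from 1 at the A of the start codon. The last 300 bases of the coding sequence are given for one gene of each pair, and the bases around the difference for its copy, all on the strand of the gene and from GENCODE M21.
Hbb-bs, bases 145 to 444: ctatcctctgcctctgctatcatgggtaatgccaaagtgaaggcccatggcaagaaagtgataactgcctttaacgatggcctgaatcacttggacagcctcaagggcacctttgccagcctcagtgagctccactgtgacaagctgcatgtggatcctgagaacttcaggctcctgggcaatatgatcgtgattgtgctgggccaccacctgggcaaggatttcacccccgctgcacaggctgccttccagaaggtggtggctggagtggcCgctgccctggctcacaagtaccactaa
Hbb-bt, bases 397 to 437: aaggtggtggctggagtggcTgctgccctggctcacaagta
Hba-a1, bases 130 to 429: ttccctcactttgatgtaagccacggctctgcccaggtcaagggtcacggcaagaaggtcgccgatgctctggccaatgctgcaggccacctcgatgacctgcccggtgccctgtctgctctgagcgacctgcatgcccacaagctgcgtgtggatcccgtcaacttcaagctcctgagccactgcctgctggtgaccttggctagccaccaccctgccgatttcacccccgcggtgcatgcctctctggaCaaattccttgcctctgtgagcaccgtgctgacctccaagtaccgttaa
Hba-a2, bases 361 to 401: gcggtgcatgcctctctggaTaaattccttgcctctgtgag

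The coding parts of the beta pair are 444 bases long and differ by C417T (Hbb-bs first), and those of the alpha pair are 429 bases long and differ by C381T (Hba-a1 first). Both differences fall on place 3 of a codon and leave the amino acid unaltered, so the genes of a pair encode the same protein. Over whole transcripts, 67.7% of the 25-base words of Hbb-bs also occur in Hbb-bt and 60.2% of those of Hbb-bt in Hbb-bs. For the alpha pair, 72.4% of the words of Hba-a1 occur in Hba-a2 and 92.3% of those of Hba-a2 in Hba-a1. With 50-base words the shares were 65.8% for Hbb-bs, 58.3% for Hbb-bt, 67.5% for Hba-a1 and 86.9% for Hba-a2. A read that lies in such a shared stretch cannot be placed on 1 gene by sequence. How the authors counted such reads is not given in the sources used here, so each single gene's value is uncertain, and a pair's sum holds a read more than once if it was counted at every copy. No other annotated gene overlaps any of the 4 genes. None of 6112 annotated small RNA transcripts matched their transcripts at 80% identity over at least 50% of the small RNA.

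The exosome libraries held 305751 and 217201 gene counts and the tumour libraries 14543691 and 10849811. Protein-coding genes took 2.82% and 3.29% of exosome counts and 1.55% and 1.58% of tumour counts. In tumour, Snrpb, which encodes a core protein of the spliceosome, alone had 146964 and 114981 of the 225850 and 171142 coding counts. The reads were amplified and carry no molecular identifiers, so intervals and limits given here cover counting error only.

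Globin messengers were found in all 4 libraries, and which group had more of them depended on what they were measured against. As a share of all gene counts and of protein-coding counts they were higher in exosomes. As a share of protein-coding counts without Snrpb, and per count of 16 housekeeping messengers, they were lower in exosomes. Hbb-bs, a beta chain gene, had 22 and 35 counts in exosomes, against 506 and 249 in tumour. Hbb-bt, its copy, had 23 and 27 counts in exosomes and 409 and 194 in tumour. Both exosome counts of each beta gene were below both tumour counts, as they were for the alpha genes, in libraries with far fewer counts in all. Hba-a1, an alpha chain gene, had 17 and 22 counts in exosomes and 366 and 226 in tumour. Hba-a2, its copy, had 20 and 18 counts in exosomes and 361 and 204 in tumour.

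Scaled to library totals as CPM, in which every library has the same total, each member was higher in both exosome libraries than in both tumour libraries. With library totals, 63.8% of all tested genes and 69.2% of the coding ones were called higher in exosomes by edgeR. The share of genes with no overlap between groups, which is another measure, was not counted. The separation of the members thus cannot be called particular to them. Hbb-bs averaged 116.5 ± 63.1 CPM in exosomes and 28.9 ± 8.37 CPM in tumour (SD, n = 2 each), a ratio of 4.04. Hbb-bt averaged 99.8 ± 34.7 CPM in exosomes and 23.0 ± 7.24 CPM in tumour, a ratio of 4.34. The alpha genes had the smaller ratios, 3.41 for Hba-a1 (78.4 ± 32.3 CPM in exosomes and 23.0 ± 3.07 CPM in tumour) and 3.40 for Hba-a2 (74.1 ± 12.3 CPM in exosomes and 21.8 ± 4.26 CPM in tumour). Exosome replicate 2 was the higher exosome library and tumour replicate 1 the higher tumour library for every member.

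**Figure D1:**
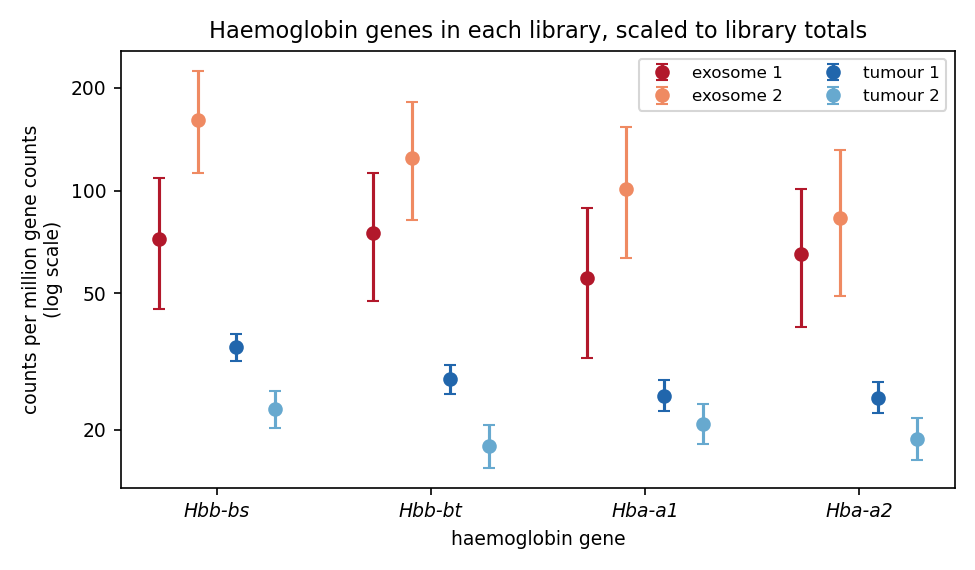
CPM (log axis) of the 4 haemoglobin genes in 2 exosome and 2 tumour libraries, with exact 95% Clopper-Pearson intervals for counting error. For each gene both exosome points lie above both tumour points, from 55.6 to 161.1 CPM in exosomes and from 17.9 to 34.8 CPM in tumour.

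Levels of different genes were compared per kilobase of the longest annotated transcript after scaling to CPM. On that scale the levels in exosomes averaged 185.6 ± 100.4 for Hbb-bs, 141.9 ± 49.4 for Hbb-bt, 133.8 ± 22.3 for Hba-a2 and 112.2 ± 46.2 for Hba-a1 (SD, n = 2). In tumour they averaged 46.0 ± 13.3 for Hbb-bs, 39.4 ± 7.68 for Hba-a2, 32.9 ± 4.39 for Hba-a1 and 32.7 ± 10.3 for Hbb-bt. Hbb-bs led in both groups, but no neighbours in either order differed by more than the larger of their SDs. The rank of the 4 genes among 21560 coding genes on this scale ran from 3 to 11 in exosomes and from 5 to 17 in tumour. The authors' deposited FPKM cannot be used for this order, because the gene lengths behind them are 1734 bases for Hbb-bs, 703 for Hbb-bt, 1193 for Hba-a1 and 1048 for Hba-a2, against longest transcripts of 628, 703, 699 and 554 bases. The lengths of the alpha genes equal the summed lengths of their annotated transcripts. In tumour replicate 1 the deposited FPKM were 20.1 for Hbb-bs and 40.0 for Hbb-bt, the reverse of the order of their counts.

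The comparison of exosomes with tumour asked which gene signatures differ between them. It was fitted across all genes with edgeR's quasi-likelihood test and TMM scaling, which sets differences relative to the typical tested gene. Of 1442 genes tested, 38.0% were called, and 22.1% were called lower in exosomes and 16.0% higher at an adjusted p of 0.05. Among the 954 protein-coding genes in that test, 10.5% were lower and 5.35% higher. All 4 haemoglobin genes passed the filter on low counts, and each was above its level of 1.79 CPM in all 4 libraries. Of the 4 members, 2 were called lower and 0 higher. The alpha genes were called lower in exosomes with TMM scaling, and higher with library totals. The beta genes were not called with TMM scaling and were called higher with library totals.

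With TMM scaling, Hba-a1 had a log2 difference of −1.08 (exosomes minus tumour, SE 0.24, edgeR adjusted p = 0.00928) and Hba-a2 one of −1.04 (SE 0.24, edgeR adjusted p = 0.00928). Hbb-bs had −0.85 (SE 0.31, edgeR adjusted p = 0.0707) and Hbb-bt −0.72 (SE 0.29, edgeR adjusted p = 0.0981). In CPM after TMM scaling every member was lower in both exosome libraries than in both tumour libraries. For Hbb-bs these were 30.1 and 55.3 in exosomes and 89.1 and 62.3 in tumour. The share of all genes with no overlap between groups was not counted, so this separation cannot be called particular to the haemoglobin genes. By the test, which is another measure, 22.1% of tested genes and 10.5% of coding ones were called lower. The median log2 difference over the 4 genes was −0.95, beside 0.018 over all genes tested and 0.061 over the protein-coding genes. Of the tested protein-coding genes, 19.3% had a lower difference than Hba-a1 and 25.1% a lower one than Hbb-bt. In this fit the members thus lay in the lower part of the range and not at its end. Their place depended on the filter. With at least 10 counts in at least 2 libraries, Hbb-bs (−0.41) and Hbb-bt (−0.28) lay above the median of all genes fitted (−0.51). Hba-a1 (−0.63) and Hba-a2 (−0.60) lay below it. With no filter the members ran from −2.26 to −1.90, near the median of −1.86. A difference in response between the alpha and the beta pair was not tested.

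**Figure D2:**
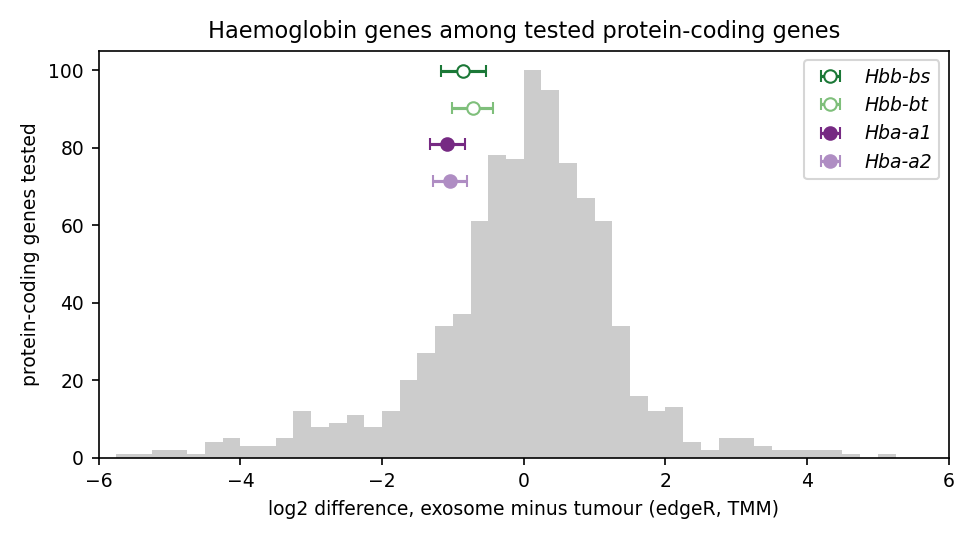
Histogram of log2 differences (exosome minus tumour, edgeR with TMM scaling) of the tested protein-coding genes between −6 and 6, with the 4 haemoglobin genes as points with SE bars, filled where the adjusted p is under 0.05. The members lie between −1.08 and −0.72, left of the middle of the histogram, and 29 genes below −6 and 1 above 6 are not drawn.

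When counts were scaled to library totals alone, the log2 differences were 1.95 for Hbb-bs, 2.07 for Hbb-bt, 1.72 for Hba-a1 and 1.74 for Hba-a2 (edgeR adjusted p = 4.80e-06, 1.85e-06, 7.16e-05 and 5.58e-05). That scaling moved the median of all tested genes to 2.75, and 63.8% of tested genes and 69.2% of the coding ones were called higher. A higher call of a haemoglobin gene there stands against that background, and each of the 4 lay below the median. Without tumour replicate 1 the alpha calls under TMM were lost (−0.97 with adjusted p = 0.0975 for Hba-a1 and −0.87 with adjusted p = 0.168 for Hba-a2, edgeR). They were also lost with upper-quartile scaling (−0.27 and −0.23) and with at least 10 counts required in at least 2 libraries (−0.63 and −0.60). Hbb-bs was called lower without exosome replicate 2 (−1.35, edgeR adjusted p = 0.00155) and without tumour replicate 2 (−1.07, edgeR adjusted p = 0.0332), and Hbb-bt without exosome replicate 2 (−0.96, edgeR adjusted p = 0.0232). With the replicate number as a block, Hbb-bs was called too (−0.84, edgeR adjusted p = 0.0102).

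**Figure D3:**
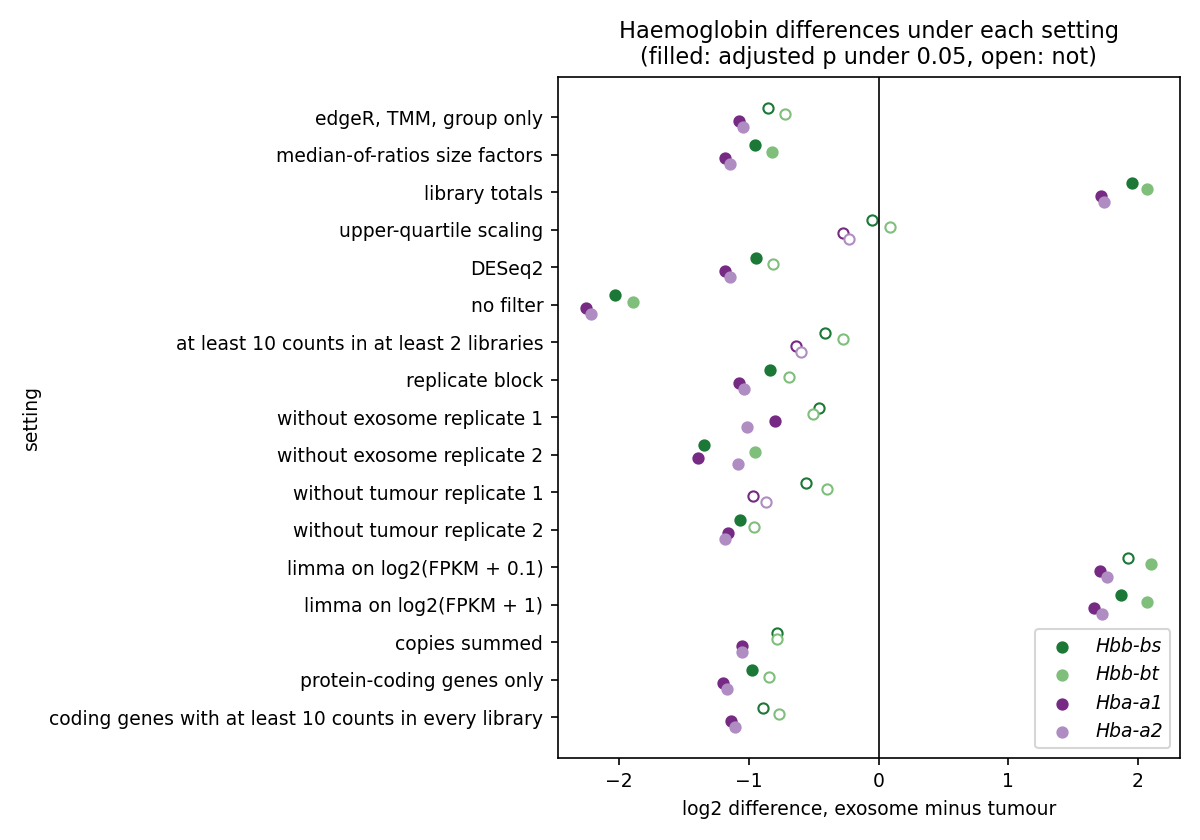
Log2 difference (exosome minus tumour) of each haemoglobin gene under 17 ways of processing the counts or FPKM, one row each, filled where the adjusted p is under 0.05. All 4 points lie left of 0 except with library totals and both fits of FPKM, where all lie right of 0, and with upper-quartile scaling, where Hbb-bt had 0.089.

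Summed over the 4 genes, haemoglobin counts were 82 and 102 in exosomes and 1642 and 873 in tumour. Their share of all gene counts was 0.0369% ± 0.0142 in exosomes and 0.00967% ± 0.00229 in tumour (SD, n = 2 each), 3.82 times as high in exosomes. Their share of protein-coding counts was 1.19% ± 0.337 in exosomes and 0.619% ± 0.153 in tumour. With Snrpb left out of the coding counts, the order turned, with 0.951% and 1.43% in exosomes and 2.08% and 1.55% in tumour. The choice of denominator alone thus set which group was higher. With 2 libraries against 2 the smallest p of an exact two-sided permutation test is 0.33, so these shares were not tested.

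With each count taken as a separate read, the share of haemoglobin counts differed between replicates of a group by more than counting error. If reads were counted at both copies of a pair, the intervals given here are too narrow. The share of all counts was 0.0268% (exact 95% Clopper-Pearson interval 0.0213% to 0.0333%) in exosome replicate 1 and 0.0470% (0.0383% to 0.0570%) in exosome replicate 2, a ratio of 1.75. In tumour it was 0.0113% (0.0108% to 0.0118%) in replicate 1 and 0.00805% (0.00752% to 0.00860%) in replicate 2, a ratio of 1.40.

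Ratios between messengers of the same library do not depend on scaling. The sum was therefore set against 16 abundant housekeeping messengers, such as those of actin, glycolytic enzymes and translation factors. Haemoglobin had 32.7 and 55.1 counts per 100 counts of these messengers in exosomes (exact 95% intervals 25.1 to 42.1 and 42.9 to 70.6) and 84.9 and 73.1 in tumour (79.4 to 90.7 and 66.9 to 79.9). Both exosome values were below both tumour values, with means of 43.9 ± 15.9 in exosomes and 79.0 ± 8.33 in tumour (SD, n = 2 each), while the interval of exosome replicate 2 overlapped that of tumour replicate 2. For Actb, the gene of cytoplasmic actin, the ratio was 1.37 and 2.43 haemoglobin counts per Actb count in exosomes and 4.26 and 3.48 in tumour. For Eef1a1, a translation elongation factor, it was 2.22 and 3.19 in exosomes and 4.69 and 4.41 in tumour.

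Gene by gene the picture was mixed. The number of haemoglobin counts per count of a gene was lower in both exosome libraries than in both tumour libraries for 7 of the 16 housekeeping messengers, higher in both for 0, and overlapping for the rest. The corresponding share was 61.1% over 859 tested coding genes with a count in every library, the 16 included and the haemoglobin genes left out. Requiring exosome counts leaves out genes low in exosomes, which can tilt this share towards lower ratios there. A set chosen after the data were seen held 24 coding genes with at least 10 counts in every library, including housekeeping messengers. The haemoglobin genes were left out. The number of haemoglobin counts per count of the gene was lower in both exosome libraries for 16 (66.7%). It was higher in both for 3, which were Snrpb, Rack1 and Ttyh1. The same limit holds for this set. For Ldha, the muscle-type lactate dehydrogenase chain, the ratios overlapped, with 16.4 and 20.4 in exosomes and 16.4 and 14.8 in tumour. Of the 16 housekeeping messengers, 1 was called higher in exosomes in the fit across all genes (Eef2) and 2 lower (Ldha and Hspa8). Over all tested coding genes, 5.35% were called higher and 10.5% lower. The housekeeping messengers had a median log2 difference of −0.27.

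**Figure D4:**
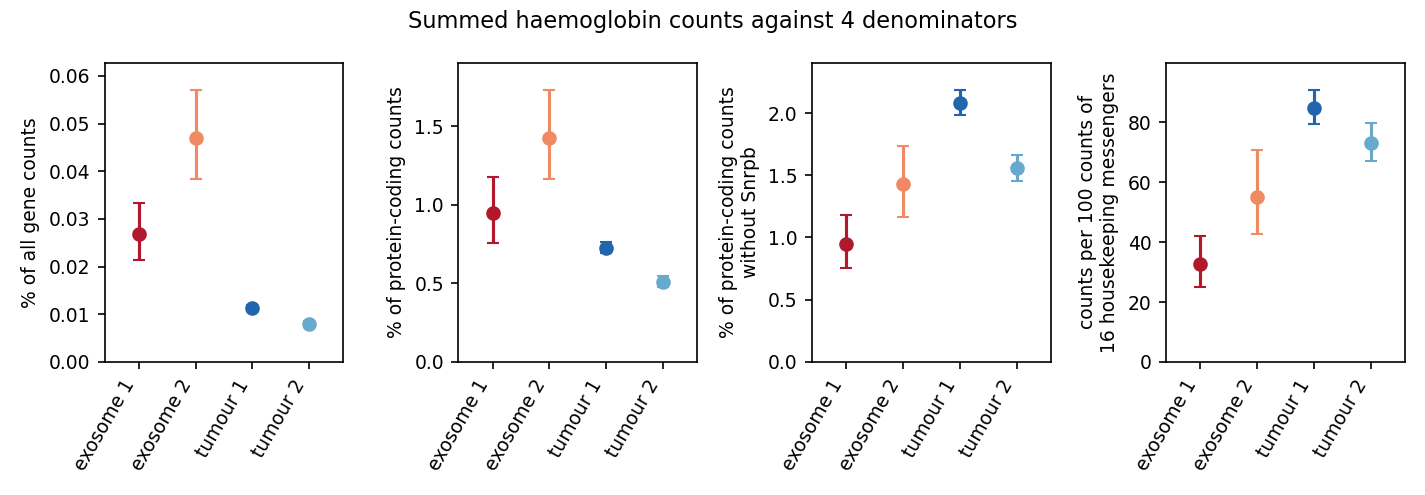
Summed counts of the 4 haemoglobin genes in 2 exosome and 2 tumour libraries, as a percentage of all gene counts, of protein-coding counts, of protein-coding counts without Snrpb, and per 100 counts of 16 housekeeping messengers, each axis from 0, with exact 95% intervals. Both exosome points are the higher ones in the first 2 panels and the lower ones in the last 2 panels.

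For the balance of alpha and beta counts, the counting intervals of all 4 libraries overlapped, those of the tumour libraries only between 45.9% and 46.7%. Such overlap does not show that the libraries were equal, and the balance was not tested. Alpha genes held 45.1% (exact 95% interval 34.1% to 56.5%) and 39.2% (29.7% to 49.4%) of haemoglobin counts in exosomes and 44.3% (41.9% to 46.7%) and 49.3% (45.9% to 52.6%) in tumour. The groups overlapped, since exosome replicate 1 lay above tumour replicate 1. Per kilobase of transcript, alpha genes held 47.1% and 40.5% in exosomes and 45.9% and 50.7% in tumour. Within the beta pair Hbb-bs held 48.9% and 56.5% of counts in exosomes and 55.3% and 56.2% in tumour. Within the alpha pair Hba-a1 held 45.9% and 55.0% in exosomes and 50.3% and 52.6% in tumour. Near-even splits were thus seen in all libraries for genes that share much of their sequence.

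**Figure D5:**
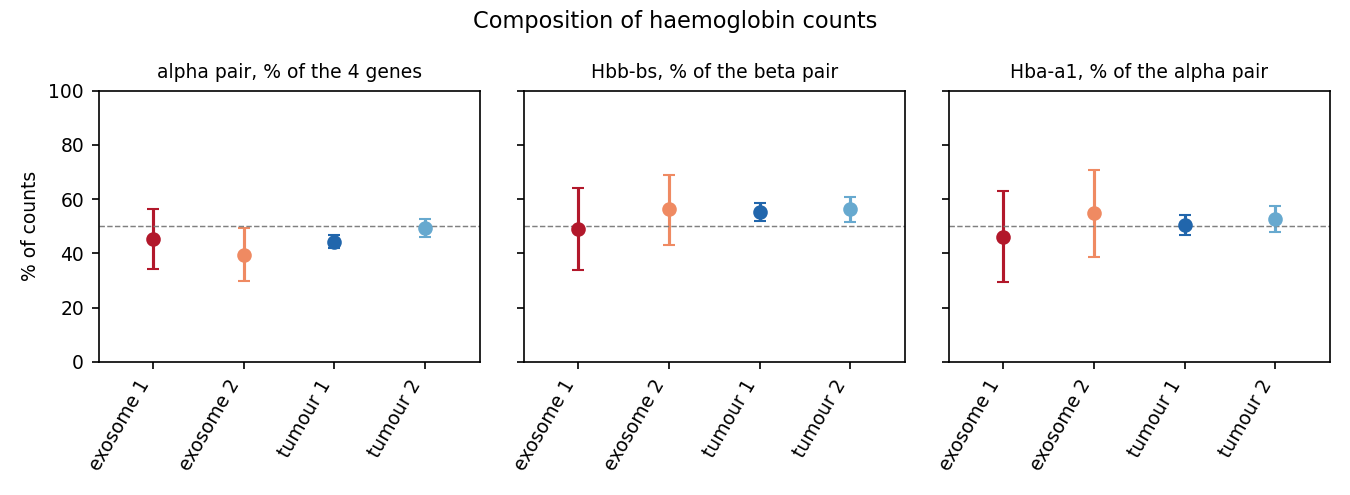
Share of the alpha pair in all haemoglobin counts, of Hbb-bs in the beta pair and of Hba-a1 in the alpha pair, in percent, for 2 exosome and 2 tumour libraries with exact 95% intervals and a dashed line at 50%. The points lie between 39.2% and 56.5%, and exosome and tumour ranges overlap in each panel.

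The other genes of the red cell held fewer counts than the adult globins. Of 9 embryonic and minor globin genes and pseudogenes matched, among them Hbb-y and Hba-x of the embryo, all had 0 counts in every library, and so did the genes of myoglobin, neuroglobin and cytoglobin. A count of 0 allows up to 3 counts per library. Alas2, the enzyme that starts haem synthesis in red cells, had 0 and 3 counts in exosomes and 19 and 8 in tumour. Per 1000 haemoglobin counts that was 0 and 29.4 in exosomes and 11.6 and 9.16 in tumour, and the 0 allows up to 36.6, so no difference was detectable at this depth. Of 12 matched genes of haem synthesis and iron supply, 11 had a count and 0 passed the filter for testing, with 1 and 4 counts in all in exosomes and 54 and 24 in tumour.

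Of 10 genes that control the red cell programme, 7 had no count in any library, among them Gata1 and Klf1, the erythroid transcription factors, and Epor, the erythropoietin receptor. The list held 0 and 1 counts in exosomes and 1 and 1 in tumour. Among 17 membrane and skeleton genes of red cells, Slc4a1, the anion exchanger, had 0 and 1 counts in exosomes and 0 and 0 in tumour. The counts of this list, 13 and 10 in exosomes and 63 and 34 in tumour, were mostly those of Slc2a1, a glucose transporter, and Epb41, a skeleton protein, which many cell types use. Neither was called (0.07 with edgeR adjusted p = 0.954 for Slc2a1, and 0.71 with edgeR adjusted p = 0.442 for Epb41). In the list of red cell cytoplasm genes Car1 and Car2, the carbonic anhydrases, had no count, and the tested members, the ubiquitin gene Ubb and the ubiquitin-conjugating enzyme gene Ube2o, were not called (edgeR adjusted p = 0.741 and 0.954). Across these lists, 63 genes beside the adult globins were matched, 36 had a count (beside 14421 of all 47069 gene IDs) and 4 were tested, of which 0 were called by edgeR and 0 had an unadjusted p under 0.05. Together they held 19 and 23 counts in exosomes and 197 and 100 in tumour, beside the 82 and 102 and the 1642 and 873 of the adult globins.

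Markers of other blood and vessel cells had few counts in exosomes, in libraries with far fewer counts in all. Per 100 housekeeping counts, neutrophil genes held 7.17 and 5.95 in exosomes and 4.08 and 1.93 in tumour. Endothelial genes held 3.98 and 2.70 in exosomes and 1.03 and 1.26 in tumour, and lymphocyte genes 0.797 and 0.541 against 0 and 0.251. Platelet genes went the other way, with 5.58 and 4.86 in exosomes and 7.55 and 5.78 in tumour. So did macrophage and monocyte genes, with 5.58 and 8.11 in exosomes and 13.5 and 14.2 in tumour. That list held 14 and 15 counts in exosomes and 262 and 169 in tumour. Of these, the single gene Fcgr3 held 4 and 3 in exosomes and 133 and 87 in tumour, so the list's difference rested largely on 1 gene. Of 14 platelet genes 7 had no count. Only Thbs1, the gene of thrombospondin, which other cells also make, was tested, with 14 and 8 counts in exosomes and 132 and 63 in tumour (log2 difference −0.29, edgeR adjusted p = 0.641). With Thbs1 the list held 14 and 9 counts in exosomes and 146 and 69 in tumour. Of 14 neutrophil genes 7 had no count, and the list held 18 and 11 counts in exosomes and 79 and 23 in tumour. S100a9, a calprotectin chain, had 11 and 4 counts in exosomes and 22 and 2 in tumour (2.16, edgeR adjusted p = 0.0909). Its partner S100a8 had 4 and 7 in exosomes and 32 and 8 in tumour (0.99, edgeR adjusted p = 0.357). In exosomes the neutrophil list rested mostly on these genes, and neither was called. Csf3r had 0 and 0 counts in exosomes and 7 and 6 in tumour, and Cxcr2 had 2 and 0 against 11 and 6. Mmp9 had 1 and 0 against 6 and 0, Lcn2 0 and 0 against 1 and 0, and Retnlg 0 and 0 against 0 and 1. Lymphocyte genes held 2 and 1 counts in exosomes and 0 and 3 in tumour, and Cd3e and Ighm had none. Of 10 endothelial genes 9 had a count. They held 10 and 5 counts in exosomes and 20 and 15 in tumour, and only Cdh5, the cadherin of vessel walls, was tested (1.53, edgeR adjusted p = 0.151). The part of such cells in the haemoglobin values was not tested.

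Of 11 genes that take up haemoglobin, break down haem or store its iron, 3 were tested and 0 were called by edgeR, while 1 (Lrp1) had an unadjusted p under 0.05. Lrp1, a receptor for haem bound to haemopexin, had 11 and 14 counts in exosomes and 160 and 123 in tumour (−0.68, edgeR adjusted p = 0.102). The ferritin genes Fth1 and Ftl1, which store iron, had differences of 0.26 and 0.66 (edgeR adjusted p = 0.718 and 0.527). Hmox1, the inducible haem oxygenase, had 0 and 0 counts in exosomes and 7 and 6 in tumour, and Cd163, the scavenger receptor for haemoglobin, 1 and 0 in exosomes and 3 and 0 in tumour. Among 14 macrophage and monocyte markers, 13 had a count and 5 were tested. Of these, 1 was called lower and 0 higher, beside 10.5% and 5.35% of all tested coding genes. The lower one was Fcgr3, an Fc receptor, with 4 and 3 counts in exosomes and 133 and 87 in tumour (−2.13, edgeR adjusted p = 0.00202), and it had a difference further below 0 than any haemoglobin gene. Lyz2, lysozyme, had −0.02 (edgeR adjusted p = 0.989) and Ctsd, cathepsin D, 0.05 (edgeR adjusted p = 0.966).

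Among the coding genes whose pattern over the 4 libraries was most like that of the summed haemoglobin counts were Eif4a1, a translation initiation helicase, Hyou1, an endoplasmic reticulum chaperone, Qk, an RNA-binding protein, and Dusp6, a phosphatase of mitogen-activated kinases. Likeness was the Euclidean distance between centred log2 CPM profiles after TMM scaling, over 950 tested coding genes, and ran from 0.243 for Eif4a1 to 0.295 for Dusp6. These genes had 1 to 4 counts in the exosome libraries, against 17 to 35 for the haemoglobin genes, and none was called (edgeR adjusted p between 0.142 and 0.391). At such counts the order of likeness rests on few reads.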

How the data were processed

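RNA of 2 exosome and 2 tumour libraries received adaptors on either end and was amplified and cut from a gel, per the labels' protocols. The submitters' processing notes name TopHat2 2.0.9, Cufflinks 2.1.1, Cuffdiff and the build GRCm38.p4. The deposited counts are whole numbers per gene with no normalization. The FPKM values, also deposited, equal, for these genes, counts divided by a gene length and the library total. The counting tool, annotation, strand and handling of multiply matching reads were not given in the sources used here. Each of the 4 sample tables equals the series table. Library totals ranged from 217201 to 305751 counts for exosomes and from 10849811 to 14543691 for tumour.

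Symbols, biotypes, transcripts and positions came from GENCODE M21. The test was that of edgeR 4.0.16 under R 4.3.3 (TMM, filterByExpr with a minimum count of 10 and a minimum total of 15, two-sided quasi-likelihood test, group as the only term, Benjamini-Hochberg adjustment over all tested genes at 0.05). The SE is the absolute difference divided by the square root of the F statistic. DESeq2 1.42.0, limma 3.58.1 on log2(FPKM + 0.1) and log2(FPKM + 1) with the same genes, other scalings and filters, a replicate block, summed copies, coding genes only and each library left out were alternatives. The script was tested on simulated data. Intervals are exact Clopper-Pearson. Small RNA matches used blastn 2.17.0. Members, gene lists and tests were chosen with earlier results of these data known. Named genes were the members, up to 3 tested genes of each list by highest mean CPM, and the coding genes most like the members, together with list genes given for their counts alone while Snrpb, Rack1, Ttyh1, Ldha and Hspa8 were chosen after their values were seen. The listed genes Ahsp and Hba-ps3 are not analysed here, and a few genes that the rule names are not reported here.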

Additional observations from a re-analysis of the deposited data

How the results depend on the processing

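Each haemoglobin gene was refitted under 16 alternatives. Of these, 13 gave a difference below 0 for Hbb-bs, Hba-a1 and Hba-a2 and 12 for Hbb-bt. Differences turned to above 0 with library totals (1.95 for Hbb-bs, 2.07 for Hbb-bt, 1.72 for Hba-a1, 1.74 for Hba-a2), with limma on log2(FPKM + 0.1) (1.92, 2.105, 1.71 and 1.76 in the same order) and on log2(FPKM + 1) (1.87, 2.07, 1.66 and 1.72), all of which scale to library totals, and for Hbb-bt with upper-quartile scaling (0.089). The alpha calls were lost for Hba-a1 and Hba-a2 with upper-quartile scaling (−0.27 and −0.23) and with at least 10 counts in at least 2 libraries (−0.63 and −0.60). The cause was not tested. Hbb-bs became a lower call with DESeq2 (−0.94), median-of-ratios factors (−0.96), no filter (−2.03), coding genes only (−0.97) and the replicate block (−0.84). Hbb-bt became one with median-of-ratios factors (−0.82) and no filter (−1.90). The median of all genes fitted was −1.86 with no filter, −0.51 with at least 10 counts in at least 2 libraries, −0.41 with DESeq2, 0.81 with upper-quartile scaling and 2.75 with library totals, against 0.018 in the reported fit. The lower calls with no filter thus stand near the median of that fit. With at least 10 counts in at least 2 libraries, Hbb-bs (−0.41) and Hbb-bt (−0.28) lay above the median and the alpha genes below it. Leaving out each library gave −1.35 to −0.46 for Hbb-bs, −0.96 to −0.39 for Hbb-bt, −1.39 to −0.80 for Hba-a1 and −1.19 to −0.87 for Hba-a2.

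The fit called 548 genes (230 higher, 318 lower), against 1086 with library totals (920 and 166), 1138 and 1001 with limma on FPKM at pseudocounts of 0.1 and 1 (977 and 161, 830 and 171), 825 with no filter (215 and 610), 155 among coding genes only (41 and 114) and 12 among 28 coding genes with at least 10 counts in every library (7 and 5), the last chosen after seeing the data. Upper-quartile scaling gave 312 higher and 249 lower. The replicate block called 589. The labels do not say whether same-numbered replicates were paired. The correlation of their deviations was −0.020 over 1442 genes, which cannot settle it, because many exosome counts are very low. The block altered no haemoglobin call other than that of Hbb-bs.

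The log2 ratio of the haemoglobin shares was 1.93 with all gene counts, 0.94 with coding counts, −0.61 without Snrpb and −0.85 against housekeeping counts, the last chosen after seeing the data. Leaving out each library gave 1.47 to 2.28. Exosome counts of 17 to 35 per gene limit the precision.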
